A study of Arabidopsis thaliana with 18 samples.

Results

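WRKY genes encode plant transcription factors that carry 1 or more copies of the WRKY domain, a zinc-binding fold that contacts DNA at the W box. The 56 Arabidopsis thaliana WRKY genes described here were taken by gene identifier from a table of 33557 genes. They do not hold the whole family, since the RefSeq annotation alone carries 67 genes with a WRKY symbol. By textbook classification 11 of the 56 belong to subgroup I, 3 to IIa, 7 to IIb, 11 to IIc, 7 to IId, 7 to IIe and 10 to III. WRKY factors act in defence, wound and salicylate responses, in leaf senescence, in phosphate supply and in trichome and seed coat development. Many are switched on within minutes to hours of a stimulus, and many bind the promoters of their own family.

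The libraries came from whole seedlings of wild-type Col-0 (WT) and of stch4-1, a mutant in the Col-0 background, each 14 days old and held for 4 h at 4 °C. Each genotype has 3 libraries, named a to c by their column. STCH4, also named REIL2, is a zinc-finger protein of late ribosome maturation, and the study asked how its loss alters cold tolerance. The study names 18 samples, and its 12 samples taken at 0 h and 24 h of cold were not analysed here, so the values show a difference between genotypes in the cold and not a response to cold.

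REIL2 itself (AT2G24500) stood at 31.2, 34.1 and 36.0 FPKM in WT and at 5.65, 5.44 and 5.80 in stch4-1, so each library followed its label. FPKM is a fragment count corrected for the length of the transcript and for how deeply the library was read. Relative depth, read from the steps in low values, ran from 1 to 1.44, with the shallowest and the deepest library both WT. Libraries of 1 genotype correlated at a Spearman rho of 0.992 to 0.994 across the genes tested, and libraries of different genotypes at 0.981 to 0.984. Leaf markers were not called in 6 of 6 genes, and their summed FPKM, 32412 to 41505 in WT and 33597 to 44500 in stch4-1, overlapped. Of all genes tested 14% were called lower and 18.5% higher. Of 13 root markers 12 were tested, 7 were called lower and 0 higher. Their summed FPKM was 1748 to 1778 in WT and 1516 to 1561 in stch4-1, most of it from PYK10, and none was at 0 in any library. Without PYK10 the sum was 201 to 209 in WT and 158 to 163 in stch4-1. In whole seedlings fewer cells of a type and less RNA per cell cannot be told apart.

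More WRKY transcripts were higher than lower in stch4-1. Of the 56 genes 54 passed the filter of 1 FPKM in at least 3 libraries. Limma on log2(FPKM + 1) called 17 of them higher and 6 lower at a Benjamini-Hochberg adjusted p under 0.05, and left 31 uncalled. WRKY62 is among the 17 but passed the filter through the stch4-1 libraries alone, which fixed its direction, and without it 16 of 53 were higher. The calls together covered 42.6% of the tested WRKY genes, beside 32.6% of all 19289 genes tested. By direction 31.5% of the WRKY genes were higher and 11.1% lower, beside 18.5% and 14% of all genes. The median log2 fold change was 0.08 for the WRKY genes, or 0.06 without WRKY62, and 0.01 for all genes. The WRKY median was 0.05 under quantile normalization and 0.03 when stch4-1 b was left out, and the median of all genes was -0.01 under quantile normalization and -0.02 under median-ratio scaling. Among called genes the median size of the change was 0.49 for WRKY genes and 0.31 for all genes. The 3 stch4-1 libraries lay above all 3 WT libraries in 19 WRKY genes, WRKY62 included, and below them in 9. Groups were apart in 47.8% of all tested genes, with stch4-1 above in 25.1% and below in 22.7%. Added over the 56 genes, FPKM came to 909, 930 and 921 in the WT libraries, and every stch4-1 library was higher, at 1036, 1037 and 1025. The summed FPKM of all genes in the table was also higher in every stch4-1 library, at 947218 to 987059 beside 878394 to 919309 in WT. As a share of that sum the WRKY genes held 0.101% to 0.104% in WT and 0.104% to 0.109% in stch4-1.

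**Figure D1:**
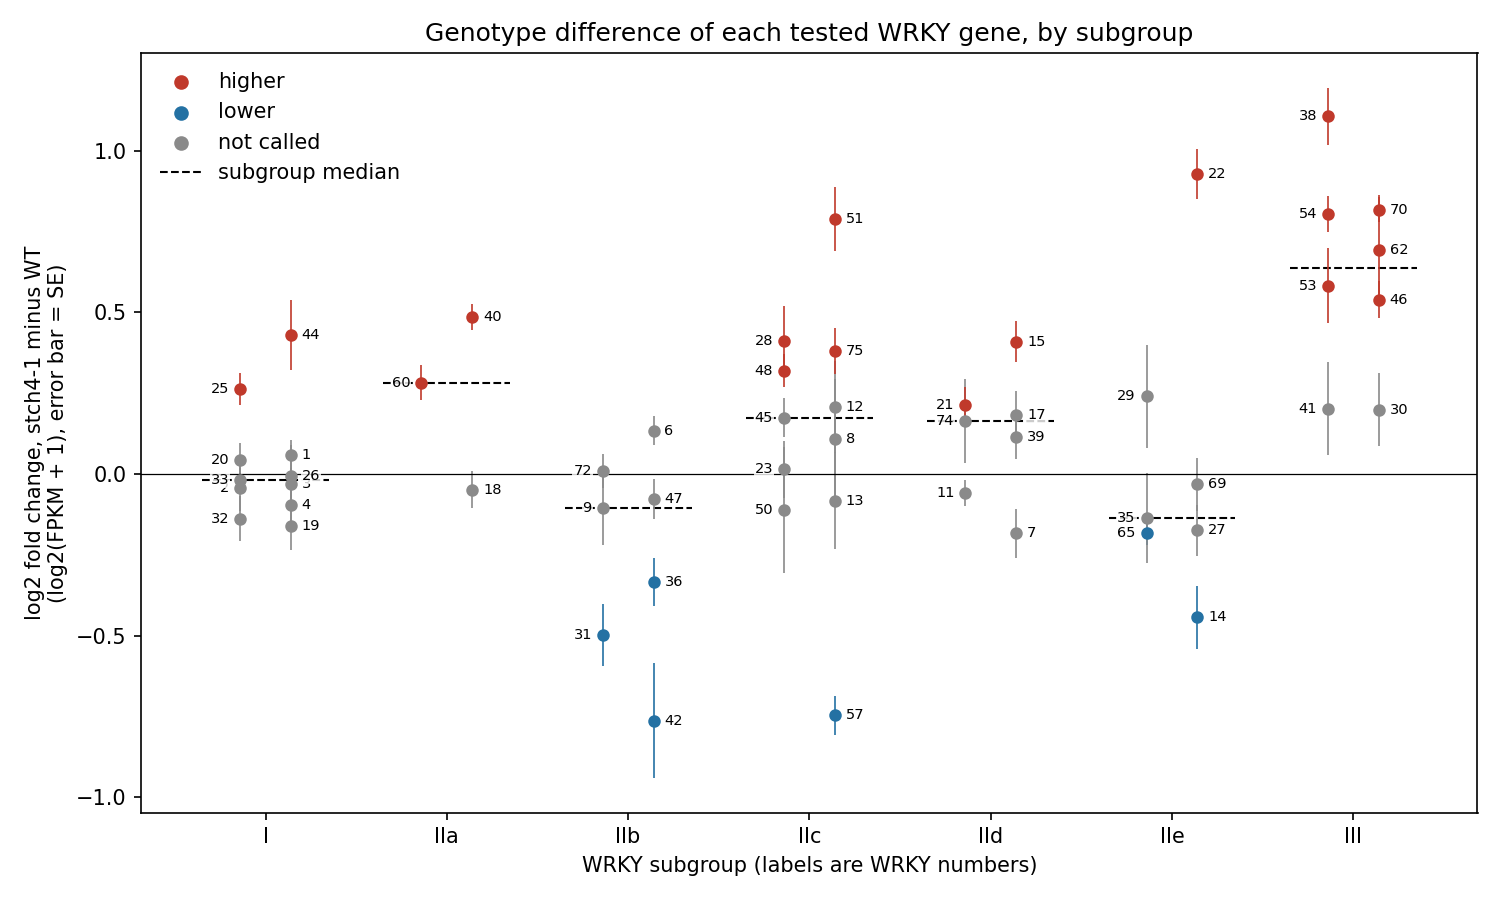
Each point is the log2 fold change (stch4-1 minus WT, y axis) of 1 tested WRKY gene with its standard error, by subgroup (x axis), coloured by the limma call, with the subgroup median dashed. In subgroup III 6 of 8 genes were called higher, or 5 of 7 without WRKY62, whose direction the filter fixed, and in IIb 3 of 7 were called lower. Of all genes tested 18.5% were called higher and 14% lower.

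The subgroups did not share 1 direction. Subgroup III had 6 of 8 tested genes higher and 0 lower, with a median log2 fold change of 0.64. Without WRKY62, whose direction the filter fixed, it had 5 of 7 higher and a median of 0.58. Subgroup IIa had 2 of 3 higher, and IId, whose proteins bind calmodulin, had 2 of 7 higher, with 0 lower in either. Subgroup IIc had 4 of 11 higher and 1 lower. Subgroup IIe had 1 of 7 higher and 2 lower. Subgroup I, whose proteins carry a pair of WRKY domains, had 2 of 11 higher and 0 lower, with a median of -0.02. Of all genes tested 18.5% were higher and 14% lower. The 18.2% higher in subgroup I is near that share. The 14.3% higher in IIe and the 9.1% lower in IIc are no more than it. Subgroup IIb had 0 of 7 higher and 3 lower, with a median of -0.10. These counts describe the genes listed, and no test set 1 subgroup against another or against all genes.

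WRKY70 and WRKY54 are subgroup III genes that respond to salicylate and act together in defence and leaf senescence. WRKY70 (AT3G56400) was at 40.8, 39.6 and 38.7 FPKM in WT and at 72.1, 70.0 and 70.2 in stch4-1. Its log2 fold change was 0.82 ± 0.04 (SE, limma adjusted p = 1e-05), a factor of 1.76. Every stch4-1 library thus stood well clear of every WT library, with little spread within either genotype. WRKY54 (AT2G40750) was at 14.6, 14.8 and 13.4 FPKM in WT and at 26.8, 24.5 and 25.6 in stch4-1 (log2 fold change 0.80 ± 0.06, SE, limma adjusted p = 7.3e-05). WT had 2.79 ± 0.10 times as much WRKY70 as WRKY54, and stch4-1 had 2.77 ± 0.08 times (SD, n = 3), with overlapping ranges (2-sided exact permutation test, p = 0.8). WRKY55 lies next to WRKY54 on chromosome 2 with no gene between them. It was at 0.41 ± 0.15 FPKM in WT and 0.20 ± 0.10 in stch4-1 (SD, n = 3) and was not tested.

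WRKY38 and WRKY62 depend on salicylate and the receptor NPR1 for their induction and dampen basal defence. WRKY38 (AT5G22570) was at 2.68, 2.46 and 3.001 FPKM in WT and at 7.09, 6.45 and 7.45 in stch4-1. Its log2 fold change was 1.11 ± 0.09 (SE, limma adjusted p = 0.00014). On the log2(FPKM + 1) scale of the main setting this was the highest of the 54 genes and the only one past 1. Over the other settings WRKY22 and WRKY62 also passed 1, at up to 1.02 and 1.34. WRKY62 (AT5G01900) was near the detection filter, at 0.499, 0.915 and 0.331 FPKM in WT and at 1.21, 1.53 and 1.89 in stch4-1 (log2 fold change 0.69, limma adjusted p = 0.017). It passed the filter only through the stch4-1 libraries, so a tested WRKY62 had to be higher there. Its call was lost without WT c (adjusted p = 0.0557) or stch4-1 c (adjusted p = 0.0547), and with a pseudocount of 0.1 its log2 fold change was 1.34.

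WRKY46 and WRKY53 act with WRKY70 in basal resistance, and WRKY53 promotes leaf senescence. WRKY46 (AT2G46400) was at 24.2, 21.0 and 23.5 FPKM in WT and at 32.8, 34.1 and 34.1 in stch4-1 (log2 fold change 0.54, limma adjusted p = 0.00047). WRKY53 (AT4G23810) was at 6.30, 6.92 and 6.42 FPKM in WT and at 11.8, 11.04 and 8.32 in stch4-1 (log2 fold change 0.58, limma adjusted p = 0.0072). The stch4-1 c library was the lowest of its group for WRKY53 but stayed above WT. WRKY53 shares 311 of its 1514 exon bases with 3xHMG-box2 on the opposite strand, and whether counting used strand is not given in the sources used here. That neighbour went the other way, from 18.6 ± 0.13 to 14.8 ± 0.72 FPKM (SD, n = 3, limma adjusted p = 0.0031). The other tested subgroup III genes, WRKY30 and WRKY41, overlapped between genotypes at means of 0.978 to 2.62 FPKM and were not called. WRKY41 shares 491 of 1178 exon bases with 3xHMG-box1, so its low value is uncertain. Among the 56 genes 11 share exon bases with another gene, such as WRKY69 with 255 of 1250. Another transcript matches 8 of the 56 over at least 50 bases at 90% identity or more. WRKY63, also known as ABO3 and tied to abscisic acid responses, was listed at 0, 0.477 and 0.219 FPKM in WT and at 0.639, 0.421 and 0.764 in stch4-1, and was not tested.

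**Figure D2:**
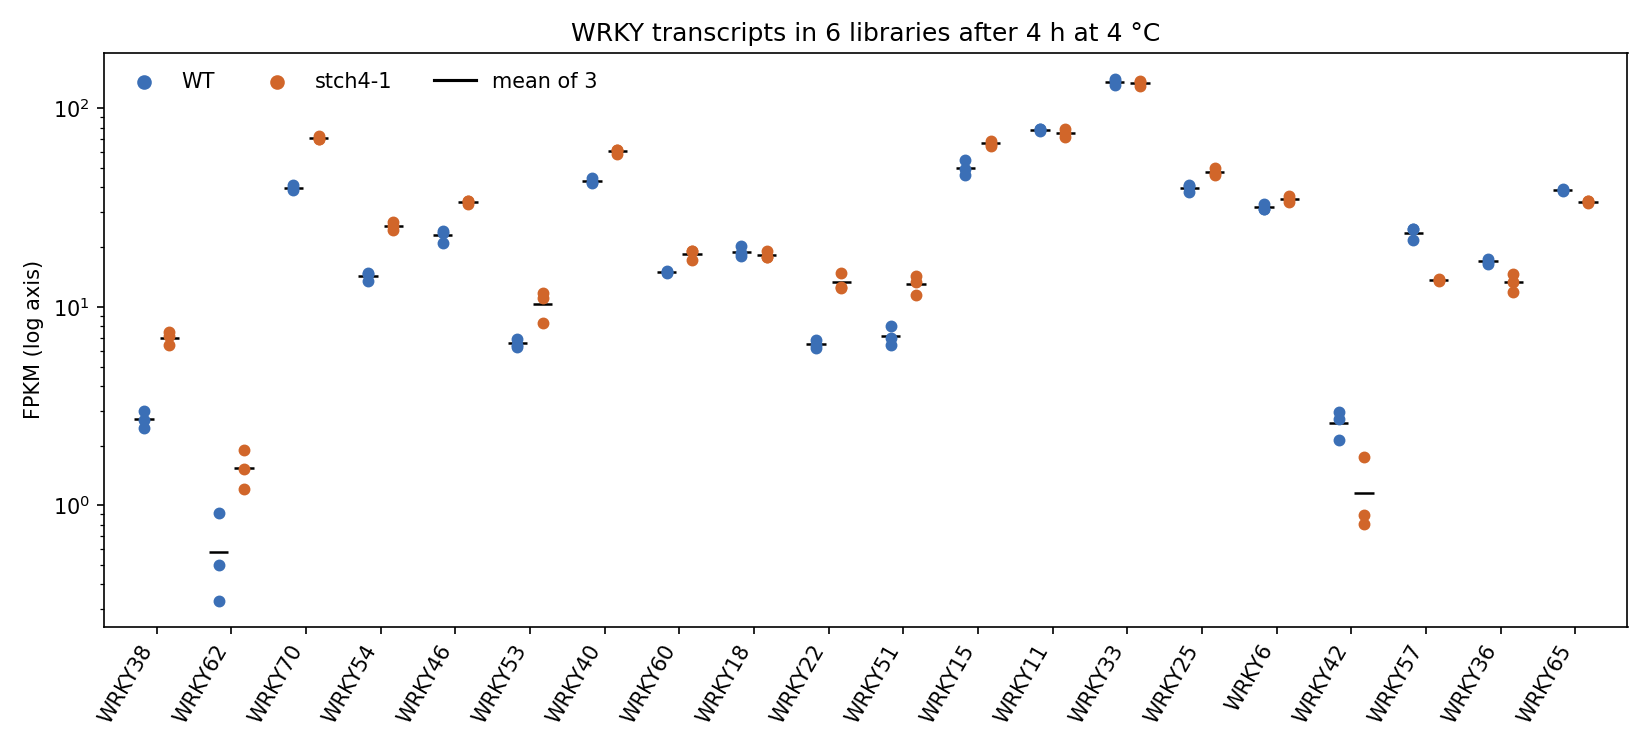
FPKM (y axis, log scale) of 20 WRKY genes (x axis) in each of the 3 WT and 3 stch4-1 libraries, with black bars for the means. WRKY70 sits at 38.7 to 40.8 FPKM in the WT libraries and at 70.0 to 72.1 in the mutant, while WRKY33 and WRKY18 points overlap.

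The W box has the core TTGAC, most often followed by C or T, and the promoters of several of these genes are shown so that the core can be seen beside the values. Each line gives the 250 bases before the annotated gene start, 5′ to 3′ on the gene's own strand, from the RefSeq TAIR10.1 genome, with TTGAC or its reverse complement GTCAA in capitals. WRKY53, WRKY70 and WRKY54 were higher in stch4-1, as was WRKY62, whose direction the filter fixed. WRKY33 had the highest level and no call, and WRKY57 was lower.
WRKY62, chr5:352096-352345, minus strand: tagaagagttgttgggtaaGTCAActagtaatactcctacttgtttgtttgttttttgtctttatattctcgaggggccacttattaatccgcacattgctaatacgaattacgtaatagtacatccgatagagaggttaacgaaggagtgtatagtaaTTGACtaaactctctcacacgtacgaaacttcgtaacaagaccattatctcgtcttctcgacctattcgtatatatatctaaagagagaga
WRKY53, chr4:12393983-12394232, minus strand: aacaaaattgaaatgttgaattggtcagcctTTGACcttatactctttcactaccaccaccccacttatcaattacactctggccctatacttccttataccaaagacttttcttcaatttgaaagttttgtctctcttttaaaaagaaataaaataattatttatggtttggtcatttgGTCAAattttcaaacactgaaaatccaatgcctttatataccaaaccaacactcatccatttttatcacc
WRKY70, chr3:20910624-20910873, minus strand: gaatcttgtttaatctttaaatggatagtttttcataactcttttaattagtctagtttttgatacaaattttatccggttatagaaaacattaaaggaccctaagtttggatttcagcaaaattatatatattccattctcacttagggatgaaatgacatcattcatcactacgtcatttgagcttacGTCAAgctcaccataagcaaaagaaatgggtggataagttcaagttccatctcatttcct
WRKY54, chr2:17002529-17002778, minus strand: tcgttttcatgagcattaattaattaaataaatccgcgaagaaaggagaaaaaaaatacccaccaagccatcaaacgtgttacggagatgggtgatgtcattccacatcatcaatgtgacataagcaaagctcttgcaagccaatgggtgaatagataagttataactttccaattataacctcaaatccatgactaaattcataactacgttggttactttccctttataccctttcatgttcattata
WRKY33, chr2:16107985-16108234, plus strand: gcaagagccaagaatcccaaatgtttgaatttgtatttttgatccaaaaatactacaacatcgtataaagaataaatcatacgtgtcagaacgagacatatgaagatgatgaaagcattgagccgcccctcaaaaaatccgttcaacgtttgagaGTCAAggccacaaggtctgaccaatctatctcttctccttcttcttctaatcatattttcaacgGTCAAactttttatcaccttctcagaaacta
WRKY57, chr1:26058384-26058633, minus strand: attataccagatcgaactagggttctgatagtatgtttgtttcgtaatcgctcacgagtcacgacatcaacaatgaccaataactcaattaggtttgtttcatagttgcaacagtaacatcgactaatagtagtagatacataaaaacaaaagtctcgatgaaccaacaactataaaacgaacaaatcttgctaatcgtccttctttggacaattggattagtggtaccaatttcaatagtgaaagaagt

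WRKY62 and WRKY53 each have 2 cores, both followed by C or T. In WRKY62 the first base of the cores lies 231 and 91 bases before the start, and in WRKY53 it lies 219 and 70 bases before it. WRKY70 has 1 core, 60 bases before the start, and WRKY54 has none in this window. WRKY33 has 2 cores, 95 and 31 bases before the start, and WRKY57 has none. Of the genes not shown, WRKY42 and WRKY36, called lower, have 2 cores and 1 core. WRKY22 and WRKY48, called higher, have none.

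Of the 56 windows 31, or 55.4%, hold TTGAC on either strand, beside 44.9% of the windows of 27438 nuclear protein-coding genes. With 2 or more cores the shares are 28.6% and 14.1%, and for TTGACC or TTGACT, which contain the core, 39.3% and 28.4%. A core was present in 12 of the 17 WRKY genes called higher, in 2 of the 6 called lower and in 16 of the 31 left uncalled. With 2 or more cores those counts were 4, 1 and 11. WRKY62, whose direction the filter fixed, is 1 of the 17 and 1 of the 4. A match is a stretch of letters and does not show binding.

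Subgroup IIa holds WRKY18, WRKY40 and WRKY60, partly redundant repressors in defence and abscisic acid signalling that form complexes with one another. WRKY40 (AT1G80840) was at 44.6, 42.7 and 42.1 FPKM in WT and at 61.6, 61.8 and 59.0 in stch4-1 (log2 fold change 0.49 ± 0.04, SE, limma adjusted p = 0.00016). WRKY60 (AT2G25000) was at 15.1, 14.8 and 15.0 FPKM in WT and at 19.0, 19.0 and 17.2 in stch4-1 (log2 fold change 0.28, limma adjusted p = 0.0061). Both rose without overlap, while WRKY18 (AT4G31800) gave 20.1, 17.9 and 18.7 FPKM in WT and 17.8, 17.9 and 19.0 in stch4-1, which overlap (log2 fold change -0.05, limma adjusted p = 0.54). WRKY40 was therefore 2.28 ± 0.09 times the level of WRKY18 in WT and 3.34 ± 0.20 times in stch4-1 (SD, n = 3). The 2-sided exact permutation test of that ratio gave p = 0.1, the smallest that 3 against 3 libraries allow. Among 7 ratios within subgroups, chosen with the values known, 6 gave this p, which is 0.117 after Benjamini-Hochberg adjustment.

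WRKY22 and WRKY29, of subgroup IIe, lie downstream of a MAP kinase cascade started by bacterial flagellin. WRKY22 (AT4G01250) was at 6.23, 6.84 and 6.41 FPKM in WT and at 14.7, 12.6 and 12.5 in stch4-1. Its log2 fold change of 0.93 ± 0.08 (SE, limma adjusted p = 0.00017) was the second highest of the family on the log2(FPKM + 1) scale. WRKY29 was lower in level and overlapped, at 4.42 ± 1.12 and 5.32 ± 0.68 FPKM (SD, n = 3, limma adjusted p = 0.28). The related WRKY27 stood at 4.48 ± 0.25 and 3.86 ± 0.24 FPKM (SD, n = 3), lower in stch4-1 without overlap. It was not called (limma adjusted p = 0.13). WRKY35 and WRKY69 overlapped and were not called. WRKY14 and WRKY65 of the same subgroup fell. WRKY14 went from 6.17 ± 0.31 to 4.29 ± 0.62 FPKM (SD, n = 3, limma adjusted p = 0.011), and WRKY65 from 38.6 ± 0.47 to 33.9 ± 0.37 (SD, n = 3, limma adjusted p = 0.0069).

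Subgroup IIc held 1 large rise, smaller rises and 1 large fall. WRKY51 (AT5G64810), which with WRKY50 links salicylate to lower jasmonate responses, was at 6.93, 7.99 and 6.44 FPKM in WT and at 14.3, 13.4 and 11.4 in stch4-1 (log2 fold change 0.79, limma adjusted p = 0.00093). WRKY50 overlapped, at 2.04 ± 0.81 and 1.77 ± 0.39 FPKM (SD, n = 3). WRKY57 (AT1G69310), a factor of drought tolerance that restrains jasmonate-induced leaf senescence, was at 21.6, 24.8 and 24.6 FPKM in WT and at 13.9, 13.7 and 13.4 in stch4-1. Its log2 fold change was -0.75 ± 0.06 (SE, limma adjusted p = 0.00016), and the 3 stch4-1 values lay close together and far below WT.

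WRKY48, a stress-induced repressor of basal resistance, rose from 16.6 ± 0.46 to 21.0 ± 0.89 FPKM (SD, n = 3, limma adjusted p = 0.0026). WRKY28, which activates the salicylate synthesis gene ICS1, rose from 5.48 ± 0.34 to 7.68 ± 1.21 (SD, n = 3, limma adjusted p = 0.021). For WRKY28 the call was lost when WT a, WT b, stch4-1 a or stch4-1 b was left out, at an adjusted p of 0.0533 to 0.0638. The remaining IIc genes, WRKY8, WRKY12, WRKY13 and WRKY23, overlapped and were not called.

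Phosphate-linked members moved in different ways. WRKY75 (AT5G13080), a root regulator of phosphate acquisition, was at 11.6, 10.5 and 12.0 FPKM in WT and at 14.6, 16.3 and 14.4 in stch4-1 (log2 fold change 0.38, limma adjusted p = 0.0055). WRKY45, an activator of the phosphate transporter gene PHT1;1, stood at 10.8 ± 0.17 and 12.3 ± 0.76 FPKM (SD, n = 3) without overlap and was not called (limma adjusted p = 0.059), though it was without stch4-1 b (adjusted p = 0.0358). WRKY6 and WRKY42, of subgroup IIb, repress PHO1, which loads phosphate into the root xylem.

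WRKY6 (AT1G62300) stood at 31.7 ± 1.16 FPKM in WT and 34.9 ± 1.22 in stch4-1 (SD, n = 3, limma adjusted p = 0.056). A call as higher appeared when the length trend was removed (adjusted p = 0.0279), when genes averaging under 5 FPKM were dropped (adjusted p = 0.0482) and when WT b was left out (adjusted p = 0.0455). WRKY42 (AT4G04450) was at 2.72, 2.13 and 2.94 FPKM in WT and at 0.804, 1.75 and 0.892 in stch4-1 (log2 fold change -0.76 ± 0.18, SE, limma adjusted p = 0.014). Its groups did not overlap, but the call was lost without WT c (adjusted p = 0.0528), and with a pseudocount of 0.1 the log2 fold change was -1.18.

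The other called IIb genes also fell. WRKY36, a repressor of hypocotyl photomorphogenesis through HY5, went from 16.9 ± 0.55 to 13.3 ± 1.35 FPKM (SD, n = 3, limma adjusted p = 0.011), and WRKY31 from 5.10 ± 0.50 to 3.32 ± 0.31 (SD, n = 3, limma adjusted p = 0.0059). WRKY9, WRKY47 and WRKY72 overlapped. Of the root markers 7 of 12 were called lower, beside 14% of all genes tested. Among them PRP3, a root hair wall protein, fell from 54.1 ± 1.98 to 33.1 ± 2.14 FPKM (SD, n = 3). Other root hair genes of that list were not called, with log2 fold changes of -0.11 for COBL9, 0.03 for EXPA7 and 0.23 for RHD6, and the root genes SHR and PIN2 overlapped between genotypes. The part of root tissue in the WRKY values was not tested.

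The levels of the family were led by genes that were not called. WRKY33 (AT2G38470), needed for camalexin synthesis and resistance to necrotrophic fungi, was at 131, 140 and 137 FPKM in WT and at 136, 137 and 129 in stch4-1. The groups overlapped, with WT b the highest and stch4-1 c the lowest library (log2 fold change -0.02, limma adjusted p = 0.73), and quantile normalization gave -0.15 (adjusted p = 0.0291). WRKY11 (AT4G31550), a IId repressor of basal resistance, followed at 78.1 ± 1.16 and 75.0 ± 3.25 FPKM (SD, n = 3, limma adjusted p = 0.30), and was called lower by quantile normalization alone of the settings tried (adjusted p = 0.0344). Next in WT came WRKY15 at 49.97 ± 4.50, WRKY40 at 43.1 ± 1.31, WRKY25 at 39.8 ± 1.86 and WRKY70 at 39.7 ± 1.08 (SD, n = 3). WRKY25 and WRKY70 did not differ beyond their spread in WT, while in stch4-1 WRKY70, at 70.8 ± 1.15, stood above WRKY40 and above WRKY15, which was at 66.5 ± 2.00 (SD, n = 3). Low levels were also common, with 9 of the 56 genes under a mean of 2 FPKM.

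WRKY25 and WRKY26 act with WRKY33 in heat tolerance. WRKY25 was at 37.7, 40.7 and 41.0 FPKM in WT and at 47.4, 50.2 and 46.2 in stch4-1 (log2 fold change 0.26, limma adjusted p = 0.0055), so it rose with no overlap. WRKY26 stood at 7.87 ± 0.88 and 7.83 ± 0.79 FPKM (SD, n = 3, limma adjusted p = 0.97). Of the calmodulin-binding IId genes, WRKY15, linked to growth under osmotic and oxidative stress, was at 45.9, 54.8 and 49.3 FPKM in WT and at 66.3, 64.7 and 68.7 in stch4-1 (log2 fold change 0.41, limma adjusted p = 0.0024). WRKY21 rose from 12.5 ± 0.50 to 14.7 ± 0.55 FPKM (SD, n = 3, limma adjusted p = 0.020), a call lost without WT a, WT c or stch4-1 c (adjusted p from 0.0501 to 0.0704). WRKY17, which with WRKY11 represses basal resistance, overlapped at 20.4 ± 1.23 and 23.3 ± 2.13 FPKM (SD, n = 3, limma adjusted p = 0.092), and was called higher without stch4-1 b (adjusted p = 0.0421). WRKY7, WRKY39 and WRKY74 overlapped and were not called.

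WRKY44, also named TTG2 and needed for trichomes and seed coat pigment, was at 5.17, 6.86 and 6.85 FPKM in WT and at 9.60, 8.27 and 8.46 in stch4-1 (log2 fold change 0.43, limma adjusted p = 0.019). The groups were apart, but the call was lost without stch4-1 a (adjusted p = 0.0685). The other 7 subgroup I genes, WRKY1, WRKY2, WRKY3, WRKY4, WRKY19, WRKY20 and WRKY32, had log2 fold changes between -0.16 and 0.06 and were not called, although WRKY4 and WRKY19 lay lower in stch4-1 without overlap.

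**Figure D3:**
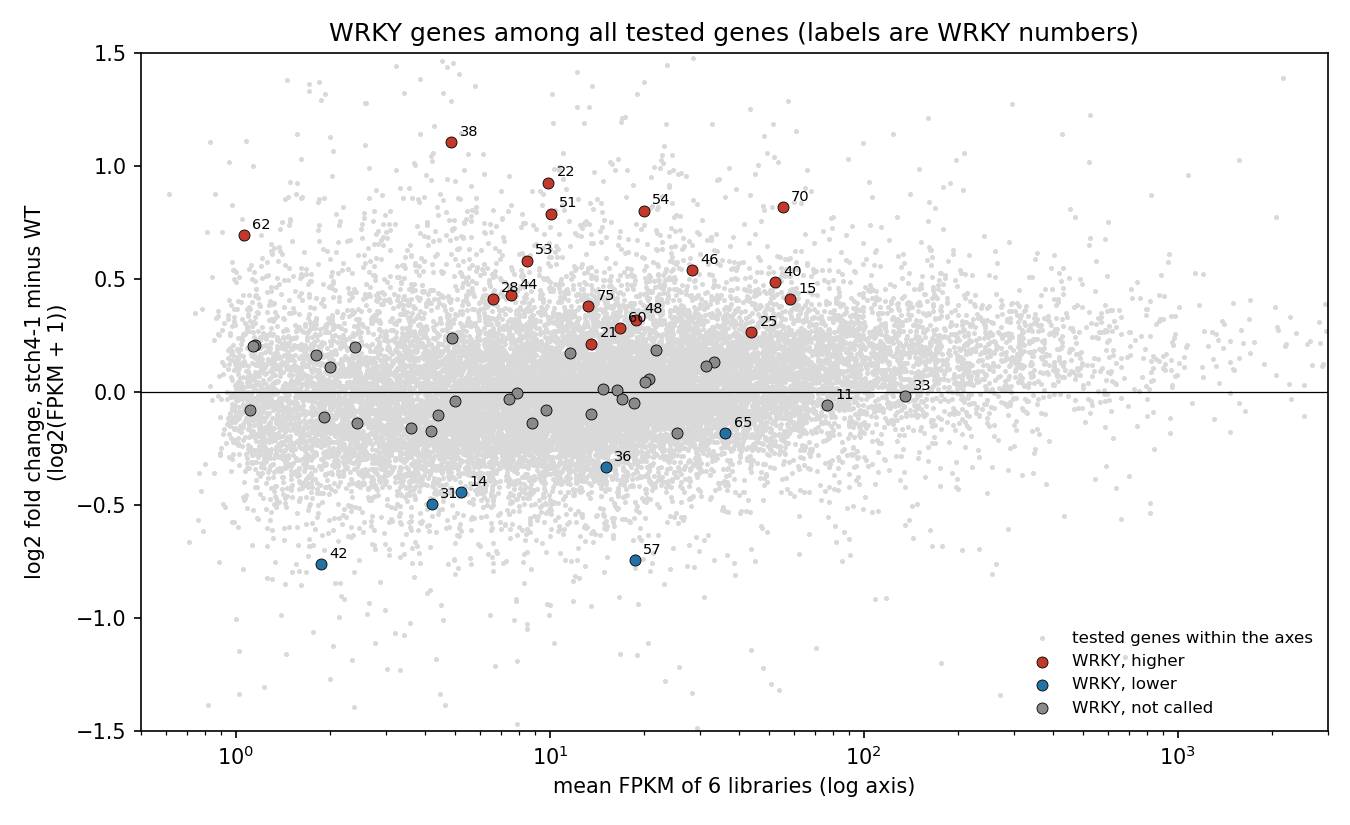
Mean FPKM of the 6 libraries (x axis, log scale) against the log2 fold change (y axis) of tested WRKY genes, coloured by call, over the tested genes that lie within the axes. WRKY33 and WRKY11 have the highest levels and lie near 0, and WRKY38 has the largest rise at a low level.

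The partners and signals around the WRKY factors were followed in lists written from textbook knowledge, with earlier results of these data known. Of all genes tested 18.5% were called higher and 14% lower, and no list was tested against those shares. VQ proteins bind WRKY domains and alter their activity. Of 10 listed 9 were tested, and 5 rose and 0 fell, with a median log2 fold change of 0.27. SIB1, a partner of WRKY33, rose from 44.0 ± 5.12 to 87.5 ± 1.27 FPKM (SD, n = 3, limma adjusted p = 0.00011), and its relative SIB2 from 6.63 ± 1.39 to 9.44 ± 0.81 (SD, n = 3, limma adjusted p = 0.031). JAV1, a brake on jasmonate responses, rose from 12.3 ± 0.72 to 15.0 ± 0.37 (SD, n = 3, limma adjusted p = 0.0096). MKS1, which links MPK4 to WRKY33, stood at 4.55 ± 0.51 and 5.63 ± 0.79 (SD, n = 3, limma adjusted p = 0.12). The count of risen VQ genes was 3 with the length trend removed, 2 without stch4-1 a and 3 without stch4-1 c.

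MAP kinases phosphorylate several WRKY factors. Of 10 cascade genes 6 rose, beside 18.5% of all genes tested. Only 1 fell, near the 14% of all genes. The median log2 fold change of the cascade genes was 0.17. MPK11 rose from 17.5 ± 1.32 to 28.2 ± 1.17 FPKM (SD, n = 3, limma adjusted p = 0.00028) and MKK1 from 7.94 ± 0.59 to 12.1 ± 0.75 (SD, n = 3, limma adjusted p = 0.0011). MPK3, the most abundant of the list, rose from 157 ± 0.94 to 177 ± 5.41 (SD, n = 3, limma adjusted p = 0.0076). MKK5 fell from 19.8 ± 1.199 to 16.2 ± 0.23 (SD, n = 3, limma adjusted p = 0.0072), and the cascade had 2 lower genes under quantile normalization or median-ratio scaling.

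Of 17 salicylate regulators 7 rose, beside 18.5% of all genes tested, and 2 fell, near the 14% of all genes. The median log2 fold change of these regulators was 0.15. NIMIN2, an NPR1-binding protein, rose from 10.5 ± 1.34 to 18.9 ± 1.68 FPKM (SD, n = 3, limma adjusted p = 0.0008). SARD1, an activator of salicylate synthesis, rose from 9.62 ± 0.75 to 14.1 ± 0.72 (SD, n = 3, limma adjusted p = 0.0014), and its relative CBP60G from 20.4 ± 0.68 to 29.1 ± 0.93 (SD, n = 3, limma adjusted p = 0.00027). The bZIP factors TGA4 and TGA1 fell, TGA4 from 12.8 ± 0.62 to 10.4 ± 0.69 (SD, n = 3, limma adjusted p = 0.016) and TGA1 from 43.2 ± 0.46 to 36.5 ± 0.65 (SD, n = 3, limma adjusted p = 0.0023). Only 4 regulators rose when WT b or WT c was left out, and likewise when stch4-1 a or b was. Only 1 fell when WT b, WT c or stch4-1 a was left out.

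Of 14 genes known to lie under WRKY control or to mark its outputs 12 were tested, and 5 rose and 1 fell. Of all genes tested 18.5% were called higher and 14% lower, so the 1 fall was no more than the common share. PR1, a secreted defence protein, had the largest rise, from 70.7 ± 3.40 to 203 ± 19.6 FPKM (SD, n = 3, limma adjusted p = 1.1e-05). The defensin gene PDF1.2, an output of jasmonate and ethylene, rose from 33.5 ± 3.85 to 69.8 ± 3.64 (SD, n = 3, limma adjusted p = 0.00011). FRK1, a receptor kinase gene of early defence, rose from 1.58 ± 0.21 to 2.82 ± 0.16 FPKM (SD, n = 3, limma adjusted p = 0.0043). PR2, a secreted glucanase of defence, rose from 18.0 ± 1.95 to 30.5 ± 3.03 (SD, n = 3, limma adjusted p = 0.00092). PHO1, a target of WRKY6 and WRKY42, fell from 52.0 ± 2.24 to 43.4 ± 1.32 (SD, n = 3, limma adjusted p = 0.0041). PHT1;1 rose from 93.9 ± 5.18 to 125 ± 6.28 (SD, n = 3, limma adjusted p = 0.0011). The camalexin genes PAD3, at 7.67 ± 0.42 and 8.31 ± 0.43, and CYP71A13, at 2.13 ± 0.29 and 2.19 ± 0.24 (SD, n = 3), are targets of WRKY33 and were not called. Neither were the salicylate synthesis genes ICS1, at 11.3 ± 0.77 and 11.9 ± 0.17 (limma adjusted p = 0.39), and PBS3, at 7.55 ± 1.07 and 9.25 ± 0.83 (limma adjusted p = 0.086), nor the defence gene PR5, at 35.4 ± 3.66 and 42.6 ± 4.45 (SD, n = 3, limma adjusted p = 0.064). GL2, a regulator of trichomes and root hairs, was also not called (log2 fold change -0.33, limma adjusted p = 0.11).

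Touch and wounding also induce WRKY40, WRKY46 and WRKY53, and a list of touch and wound genes was followed. Of 10 touch and wound genes 9 rose and 0 fell, beside 18.5% and 14% of all genes tested. The summed FPKM of the 10 was 1256 to 1287 in WT and 1791 to 1827 in stch4-1. CML37, a calmodulin-like gene, rose from 17.3 ± 1.01 to 35.0 ± 3.28 FPKM (SD, n = 3, limma adjusted p = 0.00011), and TCH2 from 162 ± 5.16 to 229 ± 6.39 (SD, n = 3, limma adjusted p = 0.00011). For these genes a difference in handling between the genotypes cannot be told apart from a difference due to genotype in the cold. The part of touch or wounding in the WRKY values was not tested.

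**Figure D4:**
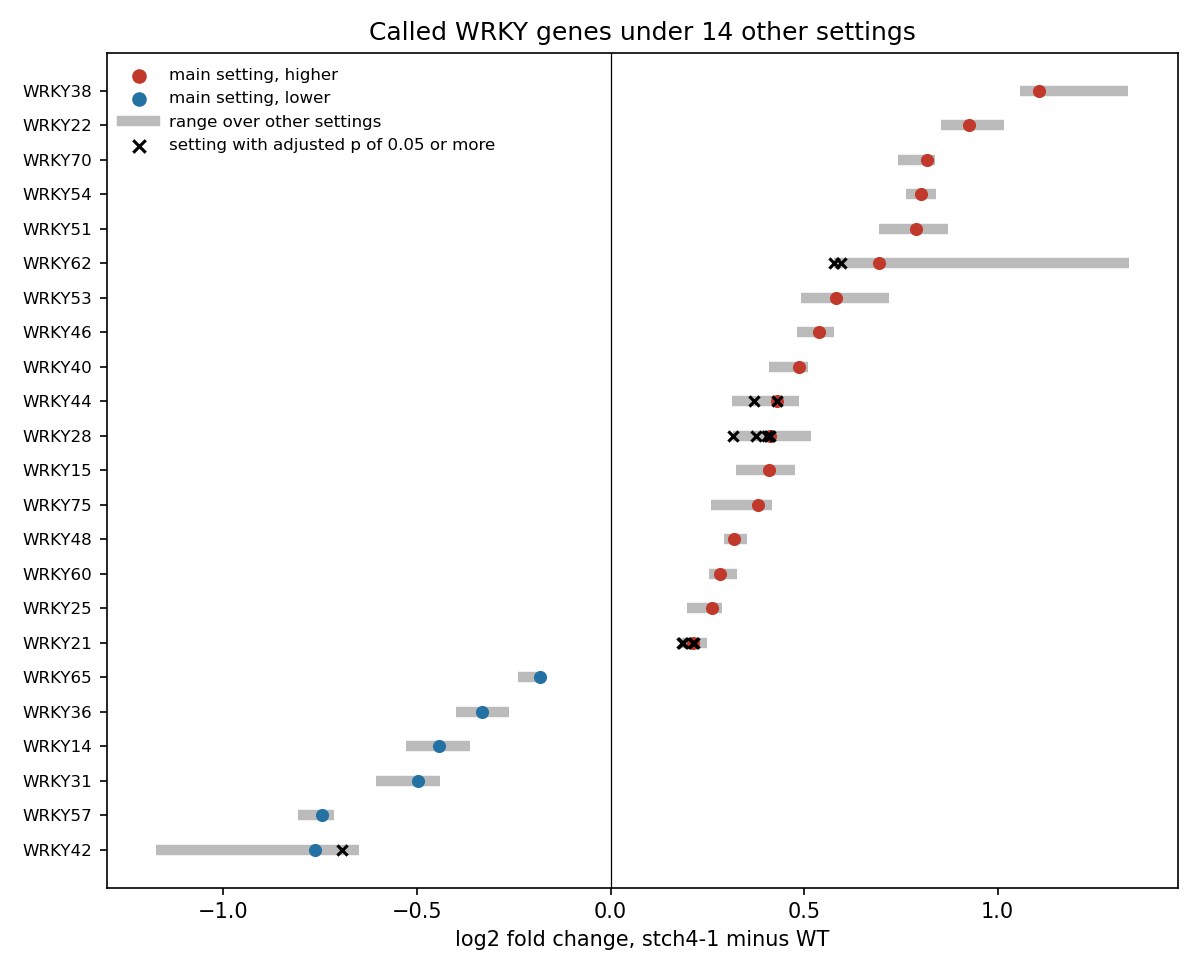
Log2 fold change (x axis) of the 23 called WRKY genes (y axis) under the main setting (points) and its range over 14 other settings (grey bars), with crosses for settings where the adjusted p was 0.05 or more. Calls of WRKY21, WRKY28, WRKY42, WRKY44 and WRKY62 were lost in at least 1 setting, and no gene changed direction. For WRKY62 the filter fixed the direction.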

How the data were processed

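Total RNA of whole seedlings, taken up in Trizol and cleared of DNA, went into Illumina libraries, per the labels' protocols. The submitters' processing notes name TopHat2, Cufflinks and TAIR10. Tool versions, the use of strand and the treatment of multiply matching reads were not given in the sources used here. The authors deposited FPKM per gene and library. Column numbers run from 0 to 2 and those of the sample titles from 1 to 3, so libraries were not matched to titles. Separate cultures are not mentioned in the labels, and the spread behind each p-value may therefore be technical.

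A gene was tested if 3 or more of the 6 libraries reached 1 FPKM. Tests used log2(FPKM + 1) in limma 3.58.1 (R 4.3.3), eBayes with intensity trend, 2-sided, with Benjamini-Hochberg adjustment over 19289 genes. The added 1 shrinks the fold change of low genes. In a simulation of this fit, where 200 of 19289 genes were changed, 69% of changes of 0.5 and 95% of changes of 1 were recovered, and 5.2% of calls were false. The fit of the data called 32.6% of genes, far more than were changed there, so these rates need not hold for the data. FPKM holds no total count, so relative depth was read from the most frequent library-to-library ratio among genes below 0.6 FPKM.

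Symbols, exon lengths, overlaps and promoters came from RefSeq TAIR10.1, whose sequence was read only by its own annotation. Symbols matched for 53 of 56 genes, and ZAP1, TTG2 and ABO3 are there called so for WRKY1, WRKY44 and WRKY63. A planned comparison of WRKY proteins was not run. The WRKY genes, lists and tests were chosen with earlier results of these data known. Named WRKY genes were called ones with a log2 change of at least 0.3, a set with well-known roles, the 3 with the highest mean and any that passed the filter through 1 genotype only. Others are named to account for every gene. Alternatives were another pseudocount, no filter, a mean of at least 5 FPKM, quantile normalization, median-ratio scaling, removal of the length trend, eBayes without trend, the column number as a block and each library left out.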

Additional observations from a re-analysis of the deposited data

How the results depend on the processing

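The columns of both genotypes are numbered alike, but no label ties a number to a shared batch. Deviations of same-numbered libraries correlated at 0.0534, -0.135 and -0.0361, and not every library correlated best with its own number, so the numbers were not taken as pairs. A fit with that number as a replicate block, added after seeing the data, called 3017 genes higher and 2063 lower, and of the WRKY genes 14 higher and 6 lower. It left WRKY21 (adjusted p = 0.0589), WRKY28 (0.0507) and WRKY44 (0.0512) uncalled. Over 14 alternatives 18 of the 23 called WRKY genes kept their call wherever they were tested, and no called gene changed direction. WRKY62 is 1 of the 23, and the filter fixed its direction. All 23 stayed called under a pseudocount of 0.1, without the filter, under quantile normalization, under median-ratio scaling, with the length trend removed and without the eBayes trend. Where genes had to average 5 FPKM or more, 19 of the 23 were tested, and all 19 were called. With 1 library left out, 20 to 22 stayed called.

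The count of WRKY genes called higher was 14 to 19 and the count called lower 4 to 9. Calls over all genes were 3576 higher and 2704 lower, of which 56.9% were higher, and 2614 and 3108, or 45.7%, under quantile normalization. With 1 library left out they were 2628 to 3260 higher and 1826 to 2273 lower. Alternatives for the subgroup counts, and libraries left out for the pathway lists, were chosen after seeing the data. Subgroup IIb had 1 gene called higher, in place of 0, under that mean filter and with the length trend removed, and 0 to 1 with 1 library left out. It had 1 called lower, in place of 3, under the mean filter. VQ genes called higher numbered 3, in place of 5, with the length trend removed and 2 to 5 with 1 library left out. Salicylate regulators called higher numbered 4 to 6 and lower 1 to 2 with 1 library left out. MAP kinase cascade genes called lower numbered 2, in place of 1, under quantile normalization and median-ratio scaling. The share of promoters with a core moved from 55.4% to 39.3% with TTGACC or TTGACT, which are stricter by construction. The cause of the other shifts was not tested, apart from the mean filter, which tests fewer genes. WRKY7 was called lower under quantile normalization (-0.23, adjusted p = 0.0459) and without WT a or stch4-1 c, and WRKY20 higher with the length trend removed (0.19, adjusted p = 0.0335). Fold changes fell with exon length over all genes, from a median of 0.18 in the shortest to -0.15 in the longest of 10 bins. The median exon length was 1432 bases in WRKY genes called higher, 2041 in those called lower and 1758 in all genes tested.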
